A study of Homo sapiens with 4 samples.

Results

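The death receptor pathway starts with ligands such as TRAIL (TNFSF10) and FAS ligand, which cluster receptors that carry a cytoplasmic death domain. The genes described are 10 that the rule names: the receptor FAS, the TRAIL receptors TNFRSF10A, TNFRSF10B, TNFRSF10C and TNFRSF10D, the ligand TNFSF10, the adaptor FADD, the initiator caspases CASP8 and CASP10, and CFLAR. They were taken by gene symbol, with the brightest probe set of each gene over the 4 arrays. The rule itself uses no difference between the lines, but the genes were chosen with earlier results of these data known. Of the 10 genes, 9 had a probe set of their own among the 18417 genes tested. The only probe set that names TNFRSF10C also names LOC254896, a non-coding RNA locus, so its signal belongs to neither alone and is given apart.

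Bound receptors recruit FADD, which brings in procaspase-8 and procaspase-10 to form the death-inducing signalling complex. CFLAR encodes c-FLIP, a relative of these caspases that competes for FADD and limits their activation, and active caspase-8 cleaves executioner caspases and the BCL2 family protein BID. In myeloid leukaemia cells the receptors are studied as a route to apoptosis that can act without the mitochondrial signals on which kinase inhibitors often depend.

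RNA was measured on arrays of 2 lines, with 2 arrays each. MV4-11 is an acute myeloid leukaemia cell line with an MLL fusion and an internal tandem duplication of the receptor kinase FLT3. It is labelled as drug-sensitive with high EZH2. MV4-11R is its drug-resistant derivative with low EZH2 by its label, obtained by growing MV4-11 for 3 months with rising doses of PKC412 (midostaurin), which blocks FLT3 among other kinases. The lines share this origin, and there is 1 resistant derivative. Whether MV4-11R kept the fusion and the duplication was not measured here. Whether it is a clone or a mixed population, and whether PKC412 was present when RNA was taken, are not given in the sources used here. Arrays of a line are numbered 1 and 2 by replicate. No replicate is said to be a separate culture, so p-values reflect array-to-array spread that could be technical only.

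Array medians lay between 6.75 and 6.78 log2 units. The correlation between arrays over all genes (genes are not replicates) was 0.994 within MV4-11, 0.993 within MV4-11R and 0.968 to 0.974 between lines. In all, 2772 of 18417 genes passed the test used throughout (limma, Benjamini-Hochberg adjusted p under 0.05), which is 15.1% of the genes, with 7.92% higher and 7.13% lower in MV4-11R. The median difference over all genes was 0.0073 log2 units. As a guide to background, the 95th percentile of 341 olfactory receptor genes was 6.26. Of the myeloid markers the lineage factor SPI1 read from 11.34 to 11.52 on the 4 arrays and FLT3 from 10.77 to 11.77, and of 8 measured markers 5 fell in MV4-11R. The summed linear signal of these 8 was 17516 and 19661 in MV4-11 and 10930.5 and 11737 in MV4-11R. Markers of T and NK cells read under the guide in both lines for 6 of 8 genes, the CD3 chains among them. Their summed linear signal was 1620 and 1686 in MV4-11 and 2827 and 2964 in MV4-11R, with NKG7 (10.33 to 11.37 log2 units) rising. Both lines read under the guide for 1 of 5 measured B cell markers, 3 of 4 erythroid and megakaryocytic markers, and 3 of 8 epithelial and fibroblast markers. Among these lists, PAX5 rose and CD79B, ITGA2B and KRT18 fell. The part of these genes in the results below was not tested.

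A pair of death receptors rose in the resistant line, the TRAIL receptor TNFRSF10B by 1.90-fold and FAS by 1.46-fold, a size that is not exact because both line means of FAS lay under the background guide. In bulk RNA, more cells that express a gene and more RNA per cell cannot be told apart. The TRAIL gene TNFSF10 had the widest gap of the group, at a level 2.22-fold lower in MV4-11R, but its arrays were too far apart for it to pass. FADD, CASP8 and CASP10 stayed within a log2 difference of 0.34 in size, and none of them passed. The CFLAR gene gave opposite readings from its probe sets. By limma 2 of the 9 measured genes rose, 0 fell and the other 7 missed the threshold. The share that passed was thus 2 of 9 where 15.1% of all genes passed. At an unadjusted limma p under 0.05, 5 of the 9 were higher and 1 was lower. The share of all genes at that unadjusted level was not counted. It is above 15.1%, since a gene at an unadjusted limma p of 0.0488 (A4GALT) had an adjusted p of 0.172. The counts of 5 and 1 therefore cannot be set against all genes and are not read as a result about the group. For 8 of 9 genes the arrays of the lines did not overlap, against 55.6% of all genes. The median difference was 0.27. The call on FAS and TNFRSF10B was lost when all 33297 probe sets were tested together, where 4.52% of them passed, and no gene of the group then passed.

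**Figure D1:**
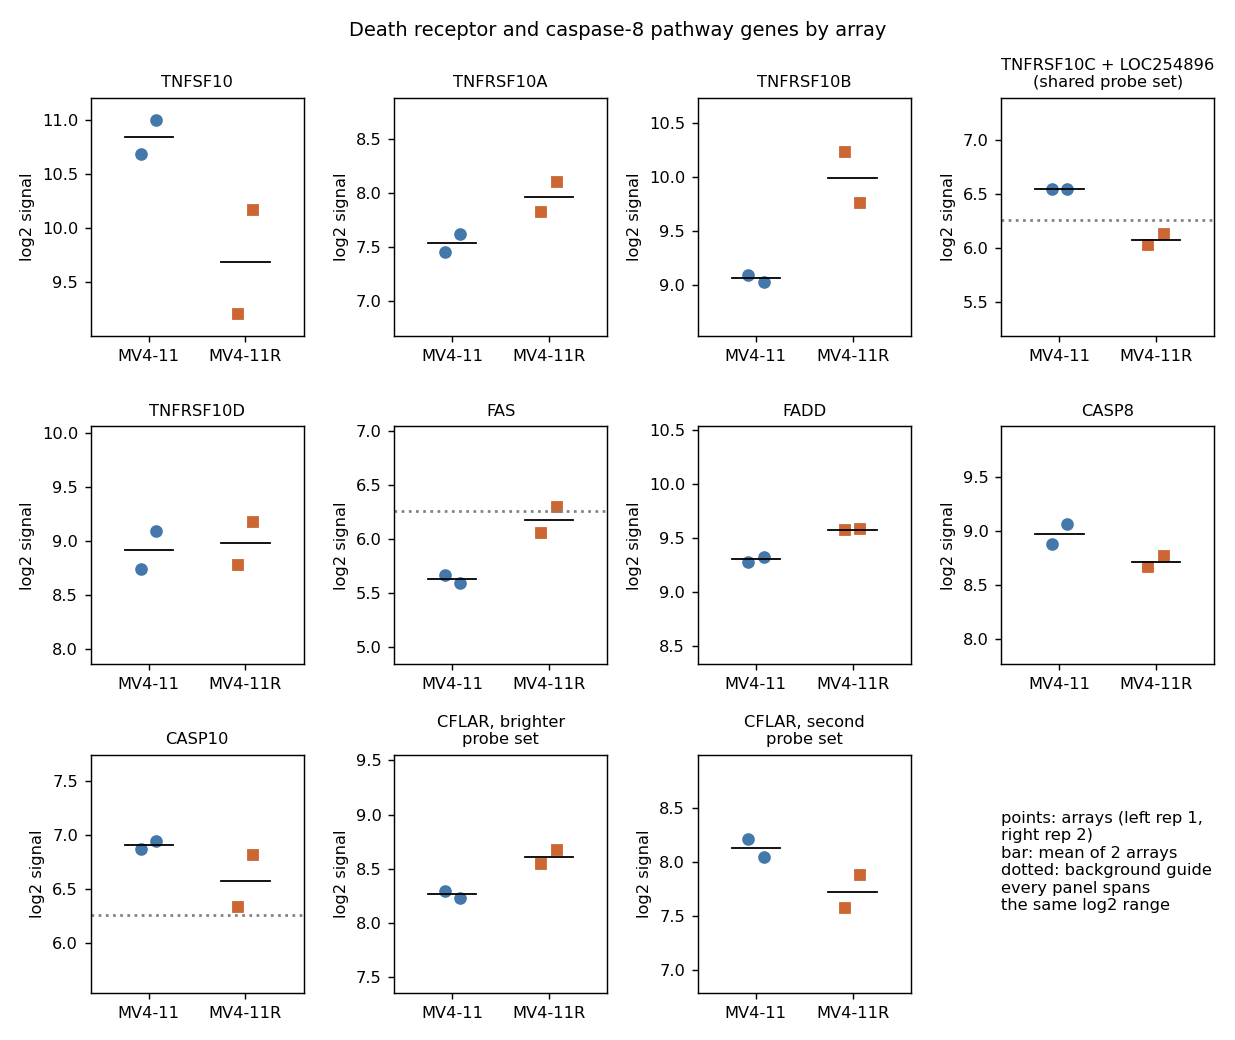
Log2 signal (vertical axis) on each array of MV4-11 (circles) and MV4-11R (squares), in a panel per gene or probe set, with bars at the mean of 2 arrays and a dotted line at the background guide. TNFRSF10B and FAS lie higher on both MV4-11R arrays, TNFSF10 lies lower with its MV4-11R arrays at 9.21 and 10.17, and the probe sets of CFLAR move in opposite directions.

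Upstream sequences are shown for TNFSF10 and FAS, the ligand with the widest gap and a receptor that rose, and for CFLAR, whose probe sets disagree. They are the 250 bases before the most upstream start listed for the gene, from RefSeq on GRCh38.p14, read 5′ to 3′. Capitals mark every match, on either strand, to 1 of 7 motifs. These are the GC box GGGCGG, the CCAAT box, the AP-1 motif TGANTCA, the STAT motif TTCNNNGAA, the interferon regulatory factor (IRF) motif GAAANNGAA, the FOXO motif GTAAACA and the NF-kB consensus by its name. The windows are chr3:172523431-172523680 on the minus strand for TNFSF10, chr10:88990548-88990797 on the plus strand for FAS and chr2:201118466-201118715 on the plus strand for CFLAR.
TNFSF10: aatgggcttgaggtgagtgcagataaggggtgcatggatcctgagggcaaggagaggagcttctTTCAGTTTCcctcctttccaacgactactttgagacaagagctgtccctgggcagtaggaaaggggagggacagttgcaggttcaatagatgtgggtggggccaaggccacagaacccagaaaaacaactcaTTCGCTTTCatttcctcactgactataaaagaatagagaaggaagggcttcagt
FAS: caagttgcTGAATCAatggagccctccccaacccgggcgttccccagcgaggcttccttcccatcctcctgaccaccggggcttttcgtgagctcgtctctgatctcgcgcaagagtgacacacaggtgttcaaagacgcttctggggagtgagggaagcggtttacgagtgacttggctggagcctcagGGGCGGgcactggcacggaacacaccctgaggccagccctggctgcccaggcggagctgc
CFLAR: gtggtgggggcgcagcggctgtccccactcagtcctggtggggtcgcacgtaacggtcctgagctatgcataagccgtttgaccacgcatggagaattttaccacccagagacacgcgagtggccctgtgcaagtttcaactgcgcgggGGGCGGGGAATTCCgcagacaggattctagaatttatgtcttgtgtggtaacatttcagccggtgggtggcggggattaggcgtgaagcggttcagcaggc

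The TNFSF10 window holds 2 matches to the IRF motif. They span 186 to 178 and 54 to 46 bases before the start and read TTCAGTTTC and TTCGCTTTC on the printed strand. That motif occurs in 7.07% of 27305 promoter windows of the same length. The FAS window holds an AP-1 match from 242 to 236 bases before the start (6.57% of windows have one) and a GC box from 60 to 55 bases before it (42.2%). In the CFLAR window a GC box overlaps an NF-kB match that spans 97 to 88 bases before the start (9.58% of windows have one). Of the 5 genes with a listed window, CASP8 and FADD also hold a GC box, and CASP8 holds a STAT match (6.76% of windows). None of the 5 holds CCAAT (33.0% of windows) or the FOXO motif (3.01%). A match is a run of letters and was not tied to binding or to the differences between the lines.

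TNFSF10 encodes TRAIL, the ligand of the receptors described next. It read 10.68 and 11.00 in MV4-11 and 9.21 and 10.17 in MV4-11R. Both MV4-11R arrays were below both MV4-11 arrays, and they differed from each other by more than the MV4-11 arrays did. The means were 10.84 ± 0.22 (SD, n = 2) and 9.69 ± 0.68 (SD, n = 2). The log2 difference was -1.15 (SE 0.31, 95% interval -1.90 to -0.40), with a limma adjusted p of 0.0571 that misses the threshold. Dropping MV4-11R array 2 gave -1.63, which passed (adjusted p = 0.00525). Dropping MV4-11R array 1 gave -0.67 (adjusted p = 0.0765). It also passed with arrays shifted to a common median (0.0280) and among genes above the 25th percentile of level (0.0490), and over 13 alternatives the adjusted p ran from 0.00525 to 0.150. The interval covers falls of very unequal size. The direction was lower under each of the 13 alternatives, but many of them could not reverse it. Settings that alter only the test or the set of rows repeat the main difference. Dropping 1 array cannot reverse it either, because the lines did not overlap.

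TNFRSF10B encodes DR5, a TRAIL receptor with a complete death domain. It read 9.10 and 9.03 in MV4-11 and 10.23 and 9.76 in MV4-11R. Both resistant arrays were above both parental ones, with the wider spread in MV4-11R. The log2 difference was 0.93 (SE 0.17, 95% interval 0.51 to 1.35, limma adjusted p = 0.0193). The call ended on dropping MV4-11 array 2 (difference 0.90, adjusted p = 0.0567) and on testing all probe sets (0.0663), and it was kept in 11 of 13 alternatives, with adjusted p from 0.00683 to 0.0663.

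TNFRSF10A encodes DR4, the other TRAIL receptor that signals death. Its values were 7.46 and 7.62 in MV4-11 and 7.83 and 8.10 in MV4-11R, again without overlap. The log2 difference was 0.43 (SE 0.14, 95% interval 0.09 to 0.77) and did not pass (limma adjusted p = 0.0985). Whether TNFRSF10A and TNFRSF10B differed in their response was not tested.

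The decoy receptors bind TRAIL without passing on a death signal. TNFRSF10D, whose death domain is truncated, read 8.74 and 9.09 in MV4-11 and 8.78 and 9.17 in MV4-11R. Its groups overlapped, and it was the only measured gene of the 9 for which they did. The difference was 0.06 (SE 0.18, 95% interval -0.38 to 0.51, limma adjusted p = 0.887). TNFRSF10C encodes a decoy held by a lipid anchor. The probe set it shares with LOC254896 read 6.55 on both MV4-11 arrays and 6.02 and 6.13 in MV4-11R, where it lay under the background guide. In the fit over all probe sets its difference was -0.47 (SE 0.11, limma adjusted p = 0.0909). Added with other probe sets of several genes to the gene table, where 13.2% passed, it reached an adjusted p of 0.0439, and over 6 alternatives the adjusted p ran from 0.0439 to 0.326. The 4 TRAIL receptor genes are paralogues, and signal shared between their probe sets was not tested.

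FAS encodes the receptor of FAS ligand. It read 5.67 and 5.59 in MV4-11 and 6.05 and 6.29 in MV4-11R. The lines did not overlap, yet 3 of the 4 values were under the background guide of 6.26, so the size of the fold is not exact. The log2 difference was 0.54 (SE 0.13, 95% interval 0.23 to 0.85, limma adjusted p = 0.0391). It passed in 8 of 13 alternatives. The call ended on dropping MV4-11 array 1 (adjusted p = 0.101), MV4-11 array 2 (0.140) or MV4-11R array 2 (0.119), on taking off the shift of neighbouring genes (0.0538) and on testing all probe sets (0.0992), and the adjusted p ran from 0.0325 to 0.140.

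**Figure D2:**
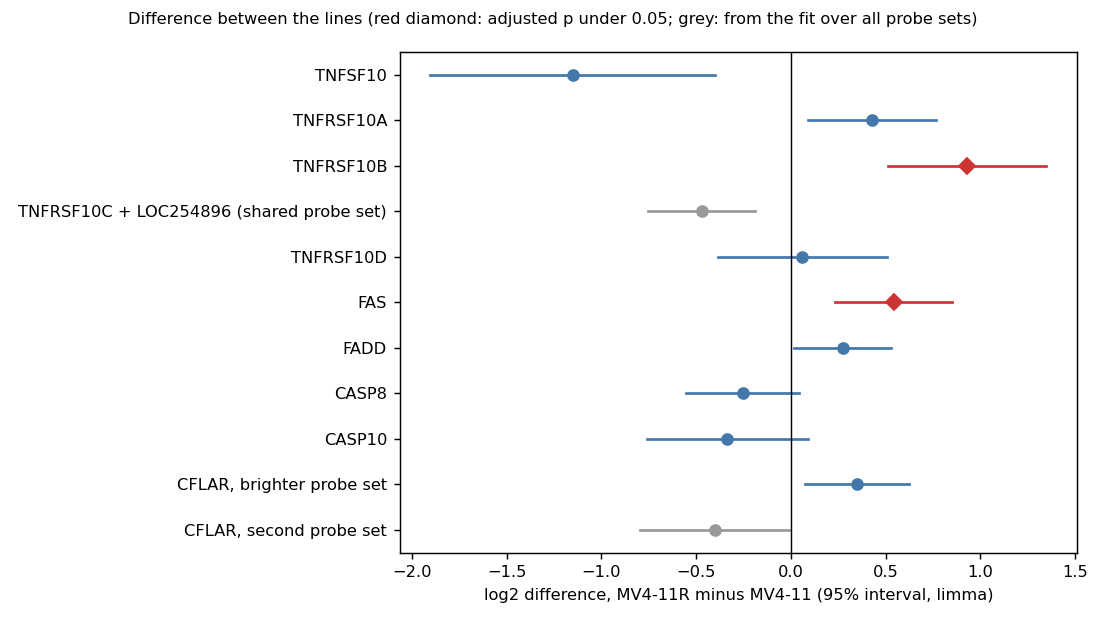
Log2 difference between the lines (horizontal axis, MV4-11R minus MV4-11) for each gene or probe set, with limma's 95% interval as a line. Red diamonds mark TNFRSF10B and FAS, the genes that passed, and the interval of TNFSF10 is the widest, from -1.90 to -0.40.

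FADD, the adaptor shared by FAS and the TRAIL receptors, read 9.28 and 9.32 in MV4-11 and 9.57 and 9.58 in MV4-11R. The lines did not overlap and the replicates lay close together. The difference of 0.27 (SE 0.10, 95% interval 0.02 to 0.53) did not pass (limma adjusted p = 0.150).

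CASP8, the initiator caspase of the pathway, read 8.87 and 9.06 in MV4-11 and 8.66 and 8.77 in MV4-11R, with no overlap. Its difference was -0.26 (SE 0.12, 95% interval -0.55 to 0.04, limma adjusted p = 0.240). CASP10, its close relative, read 6.87 and 6.95 in MV4-11 and 6.33 and 6.82 in MV4-11R. The MV4-11R arrays were both lower, but 1 of them nearly reached the MV4-11 arrays, and the difference of -0.34 (SE 0.17, 95% interval -0.76 to 0.09) did not pass (adjusted p = 0.283). Dropping MV4-11R array 1 left CASP10 at -0.094, and dropping MV4-11R array 2 put it at -0.58 (adjusted p = 0.0514). CASP8 was at -0.16 on dropping MV4-11 array 2 (adjusted p = 0.634). The median of their bright neighbours, which can include other genes of the pathway, was 0.20. With that shift taken off CASP8 was at -0.45 (limma adjusted p = 0.0577) and CASP10 at -0.53 (adjusted p = 0.0971). The 22 nearest measured genes of any level, pathway genes left out, had a median of 0.03, so the shift depends on the genes taken. Over 13 alternatives the adjusted p ran from 0.0577 to 0.634 for CASP8 and from 0.0514 to 0.781 for CASP10. For both caspases the main interval includes no difference as well as a decrease.

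CFLAR was read by 2 probe sets. The brighter read 8.29 and 8.23 in MV4-11 and 8.54 and 8.67 in MV4-11R, a difference of 0.35 (SE 0.11, limma adjusted p = 0.0966). Taking off the median of its neighbours left 0.16 (adjusted p = 0.398), and over 13 alternatives the adjusted p ran from 0.0776 to 0.930. The second read 8.21 and 8.05 in MV4-11 and 7.57 and 7.88 in MV4-11R, a difference of -0.40 (SE 0.15, limma adjusted p = 0.233 in the fit over all probe sets). In that same fit the brighter probe set had a limma adjusted p of 0.181. Each separated the lines without overlap, and they did so in opposite directions.

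The gap between the CFLAR probe sets on the same array (brighter minus second) was 0.08 and 0.18 in MV4-11 and 0.97 and 0.80 in MV4-11R. It was wider by 0.75 log2 units in MV4-11R (SE 0.09, 95% interval 0.42 to 1.08). When this gap was tested over the 769 genes with more than 1 probe set, 0.0% passed by limma (95 genes had an unadjusted p under 0.05), and CFLAR had an adjusted p of 0.243 (unadjusted p = 0.00748). By size of the change in gap it ranked 21 of 769. This test was added after the values of CFLAR were seen. The platform annotation assigns 20 transcript records to the brighter probe set and 7 to the second, with 0 shared. Which splice forms each reads was not settled here, so neither reading is a level of the whole gene, and the mean of both probe sets differed by -0.027 between the lines.

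The TRAIL receptor genes lie side by side on chromosome 8. The nearest measured genes on one side, the phosphatidylethanolamine-binding protein gene PEBP4 and RHOBTB2, had differences of -1.59 (limma adjusted p = 0.00198) and -0.54 (adjusted p = 0.0592). On the other side CHMP7 had -0.23 and R3HCC1 -0.38, and neither passed. Of the 22 nearest measured genes around the receptors 14 were lower and 8 higher, with 4 falls and 1 rise that passed and a median of -0.15. None of the 4 nearest genes outside the receptor cluster was higher, unlike TNFRSF10B. Inside the cluster TNFRSF10D (0.06) and TNFRSF10A (0.43) were also higher, and neither passed. TNFRSF10D turned lower on dropping MV4-11 array 1 (-0.11) or MV4-11R array 2 (-0.14). The probe set shared by TNFRSF10C and LOC254896, also in the cluster, was lower (-0.47) and did not pass in the fit over all probe sets (limma adjusted p = 0.0909). With the median of its bright neighbours taken off, the difference of TNFRSF10B was 1.01 (limma adjusted p = 0.0161).

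CFLAR, CASP10 and CASP8 follow each other on chromosome 2. Next to CFLAR, HYCC2 rose by 0.61 (limma adjusted p = 0.0419) and NDUFB3 differed by 0.20, and beyond CASP8, FLACC1 differed by -0.20 and TRAK2 by 0.05. Of the 22 nearest genes 13 were higher and 9 lower, 1 rose and 1 fell, and the median was 0.03.

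**Figure D3:**
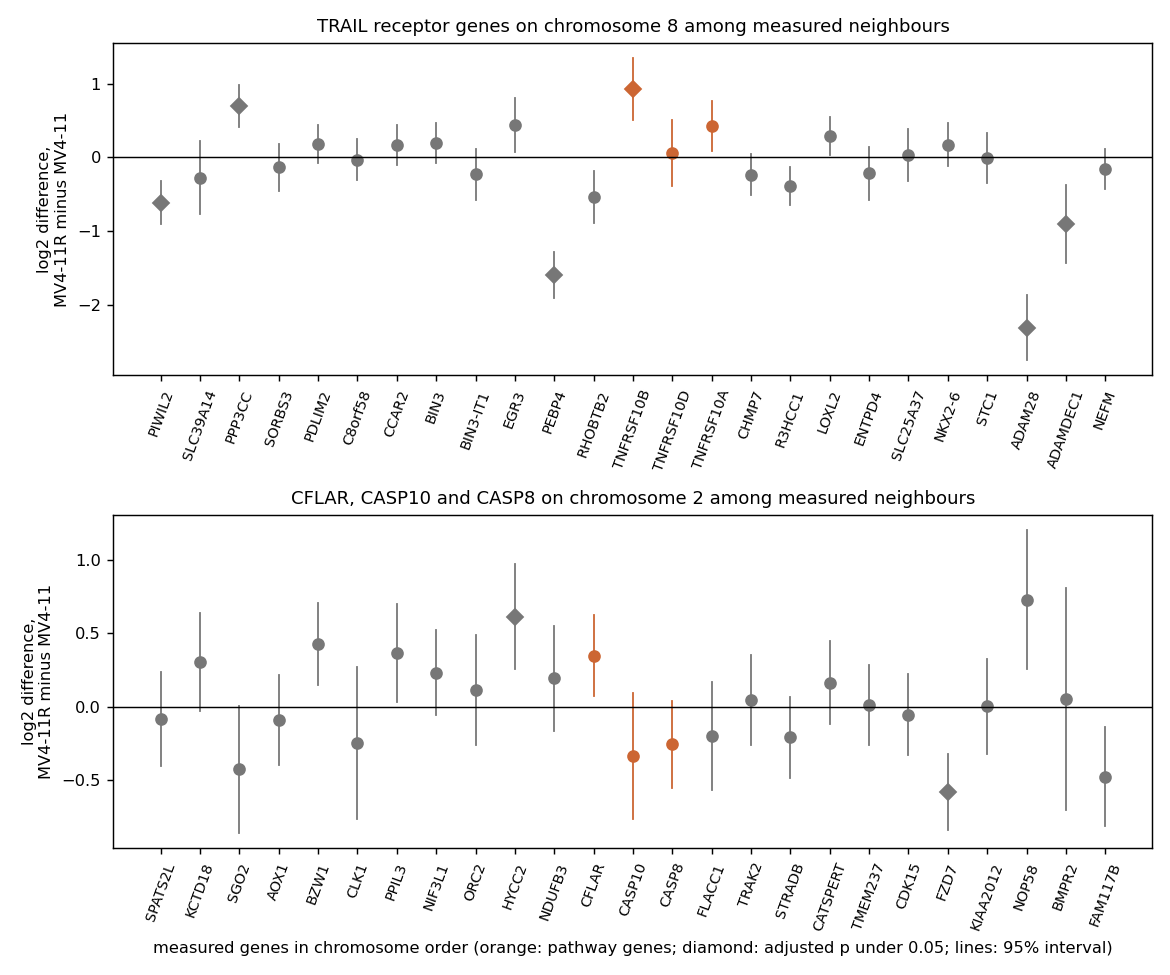
Log2 difference (vertical axis, MV4-11R minus MV4-11, lines are 95% intervals) of measured genes in chromosome order around the TRAIL receptor genes on chromosome 8 and around CFLAR, CASP10 and CASP8 on chromosome 2. TNFRSF10B stands at 0.93 beside PEBP4 at -1.59, and CFLAR lies above 0 while CASP10 and CASP8 lie below it.

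The list of other death ligands and receptors had 10 measured genes, with 1 rise, 1 fall and a median difference of -0.07. Over all genes 7.92% rose, 7.13% fell and the median was 0.0073. The cytokine TNF, whose receptor can also engage FADD and caspase-8, read 8.76 and 9.04 in MV4-11 and 11.19 and 11.47 in MV4-11R. TNF thus rose by 2.43 log2 units (SE 0.15, limma adjusted p = 0.00123), and it passed in each of 13 alternatives. TNFRSF21, the death receptor DR6, read 8.91 and 8.67 in MV4-11 and 7.41 and 7.33 in MV4-11R. It fell by 1.42 (SE 0.13, adjusted p = 0.00241), and the median of its chromosomal neighbours was -0.41. With that shift taken off, TNFRSF21 was at -1.01 (limma adjusted p = 0.00725). FASLG, the ligand of FAS, was under the background guide in both lines, at 5.63 and 5.45 in MV4-11 and 5.42 and 5.35 in MV4-11R. The main TNF receptor TNFRSF1A was 10.72 in MV4-11 and 10.50 in MV4-11R and did not pass (adjusted p = 0.312).

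The 18 measured adaptors and regulators of the receptor complexes had 2 rises, 1 fall and a median of 0.21, with 15 genes short of the threshold. A share of 3 in 18 is close to the 15.1% of all genes that passed. MLKL, the pore-forming effector of necroptosis, the death programme that caspase-8 restrains, read 6.81 and 6.84 in MV4-11 and 8.18 and 8.28 in MV4-11R. The groups were far apart and the replicates close, with a difference of 1.40 (SE 0.11, limma adjusted p = 0.00175), and the call held in 13 of 13 alternatives. RIPK3, the kinase that activates MLKL, was at -0.26 and did not pass (adjusted p = 0.249), a value given after it was seen. DEDD2, a death effector domain protein, rose by 0.52 (SE 0.11, adjusted p = 0.0281). Its neighbours had a median difference of 0.31, and with that shift removed its difference was 0.21 (adjusted p = 0.249). PEA15, which can bind FADD and caspase-8 through its death effector domain, fell by 0.62 (SE 0.16, adjusted p = 0.0472). The DEDD2 call ended on dropping any 1 array, at adjusted p of 0.133 and 0.0746 for MV4-11 arrays 1 and 2 and of 0.0894 and 0.0695 for MV4-11R arrays 1 and 2, and on testing all probe sets (0.0753), and over 13 alternatives it ran from 0.0229 to 0.249. The PEA15 call ended on dropping MV4-11 array 1 (0.149), MV4-11 array 2 (0.104) or MV4-11R array 2 (0.118), on taking off the regional shift (0.0624), on testing all probe sets (0.119) and on adding probe sets of several genes (0.0576), over a range of 0.0238 to 0.149.

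Downstream of caspase-8, limma gave 0 rises and 1 fall among 12 measured genes, with a median of 0.09. A share of 1 in 12 is below the 15.1% of all genes that passed. At an unadjusted limma p under 0.05, 1 gene was higher and 1 lower, and the share of all genes at that level was not counted. PARP1, a DNA repair enzyme that executioner caspases cleave, read 10.56 and 10.60 in MV4-11 and 9.951 and 9.999 in MV4-11R. It fell by 0.60 (SE 0.11, adjusted p = 0.0165). Its call ended on dropping MV4-11 array 1 (0.0624), MV4-11 array 2 (0.0700) or MV4-11R array 1 (0.0602) and on testing all probe sets (0.0519), over a range of 0.0112 to 0.0700. CYCS, the cytochrome c of the mitochondrial route, was at 0.68 (SE 0.19, adjusted p = 0.0593) and passed on dropping MV4-11 array 1 (difference 0.95, adjusted p = 0.0168). Dropping MV4-11 array 2 gave CYCS 0.42 (adjusted p = 0.164), and the range was 0.0168 to 0.164. BID, the substrate that links caspase-8 to mitochondria, read 10.72 and 10.76 in MV4-11 and 10.62 and 10.62 in MV4-11R (difference -0.12, adjusted p = 0.538, chosen after its value was seen).

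The 5 inflammatory caspases and gasdermins had 0 rises and 1 fall by limma, with a median of -0.21. With 5 genes, 1 call is near the 15.1% of all genes. At an unadjusted limma p under 0.05, 0 were higher and 2 lower, and the share of all genes at that level was not counted. GSDME, a pore protein that executioner caspases open, read 8.03 and 7.47 in MV4-11 and 5.02 and 4.89 in MV4-11R. It fell by 2.80 (SE 0.19, adjusted p = 0.00154) to below the background guide, so the fold is not exact, and it passed in 13 of 13 alternatives. CASP4 was at -0.37 (adjusted p = 0.109). Its neighbours had a median of 0.28, and with that shift taken off CASP4 was at -0.65 and passed (adjusted p = 0.0226, over a range of 0.0226 to 0.355). Of 4 glycosylation enzymes linked to TRAIL receptors, 0 rose and 0 fell by limma, with a median of -0.02, where 15.1% of all genes passed. At an unadjusted limma p under 0.05, 0 were higher and 1 lower, a level at which all genes were not counted. FUT3, near background, was at -0.41 (adjusted p = 0.0586) and FUT6 at -0.04 (adjusted p = 0.890). FUT3 passed with arrays shifted to a common median (0.0426), among genes above the 25th percentile (0.0471) and with the regional shift removed (difference -0.64, adjusted p = 0.0171), over a range of 0.0171 to 0.232.

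**Figure D4:**
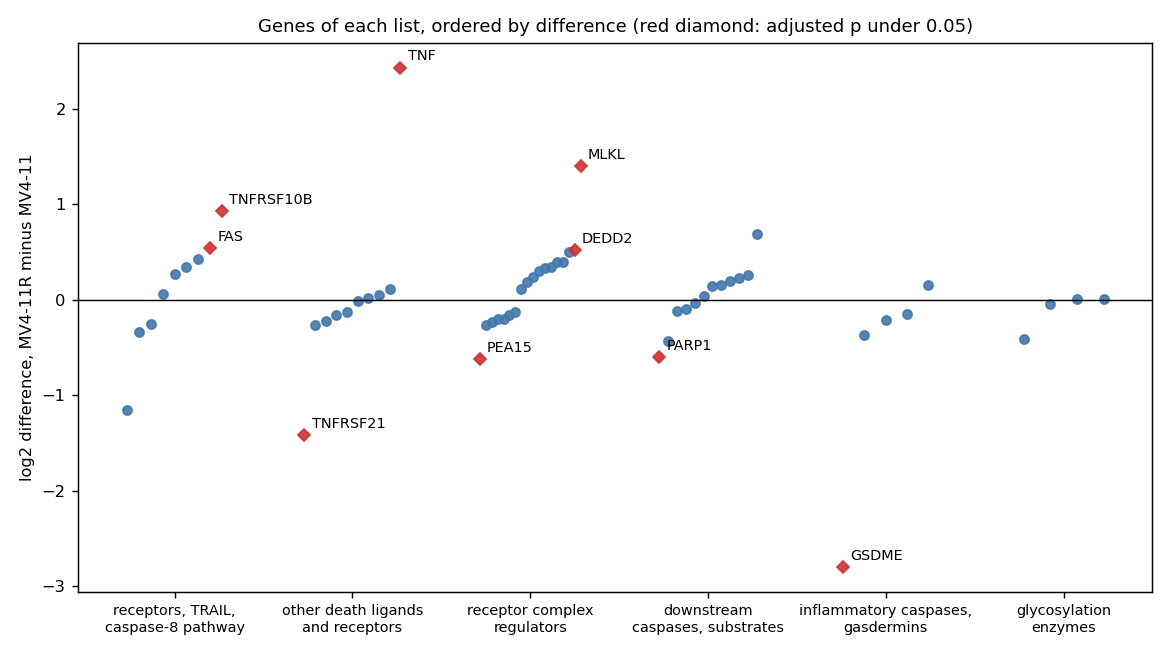
Log2 difference (vertical axis, MV4-11R minus MV4-11) of each measured gene in 6 lists, ordered within a list. Red diamonds mark and name the genes with an adjusted p under 0.05, from TNF at 2.43 to GSDME at -2.80, while most genes lie within 0.5 of 0.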

How the data were processed

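The deposited values are log2 signals of probe sets on 4 Affymetrix arrays of biotin-labelled total RNA. The authors made them with RMA, and Affymetrix Expression Console is the software named in the submitters' processing notes, without versions. RMA compresses differences of dim genes. That the values are log2 was read from their range. Arrays give no molecule counts, and their number limits the precision.

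Of 33297 probe sets, the platform annotation gave 19460 a single gene, 1754 several, and did not list 12083. Symbols were updated by Entrez ID through a RefSeq table of GRCh38.p14, where 28 genes found no match. The brightest probe set was kept per gene, for 18417 genes, with no filter on level. Differences (MV4-11R minus MV4-11, log2) were tested 2-sided with limma 3.58.1 (R 4.3.3) over all genes without a block. SE is moderated, with 6.06 degrees of freedom, 2 of them residual. The fit was tested on simulated data. A regional shift is the median difference of up to 15 genes of above-median level on each side.

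The members and gene lists were chosen with earlier results of these data known. All members were named, as were the passing genes of each pathway list (or its 2 largest differences where fewer than 2 passed) and the 2 nearest genes beside each cluster. FASLG, TNFRSF1A, RIPK3 and BID were named outside this rule. List genes without a probe set of their own were not analysed here. Figures were drawn with matplotlib 3.10.9.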

Additional observations from a re-analysis of the deposited data

How the results depend on the processing

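The 9 genes kept their direction in 114 of 117 recomputed values, and both direction and side of the threshold in 102. Many of these directions could not change. Settings that alter only the test or the set of rows repeat the main difference. Where the lines do not overlap, leaving out 1 array cannot reverse it. With all probe sets tested, 1505 of 33297 probe sets passed, which is not a count of genes. The count of all genes passing ran from 1588 (MV4-11 array 1 dropped) to 2479 with 1 array left out. It was 1638 on dropping MV4-11 array 2 and 1699 on dropping MV4-11R array 1. Of the 9 genes, 0 rose with all probe sets tested and 1 with the regional shift removed, and from 0 (MV4-11 array 2) to 2 with 1 array left out, with 1 on dropping MV4-11 array 1 or MV4-11R array 2. The count that fell was 1 (TNFSF10) with arrays shifted to a common median and among genes above the 25th percentile, and 0 to 1 with 1 array left out.

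Replicate numbers are shared by the lines, but nothing says that a number marks a day or batch. Deviations of same-numbered arrays correlated at r = 0.26 across genes. With the replicate block 3642 genes passed, 3 of the 9 rose (TNFRSF10A as well, adjusted p = 0.0444) and 1 fell (TNFSF10, adjusted p = 0.0115). CYCS (adjusted p = 0.0334) and FUT3 (0.0456) also passed with the block. The direction reversed for TNFRSF10D with 1 array left out (-0.14 to 0.26), for FUT6 (-0.27 to 0.059 over all alternatives, with 0.015 on dropping MV4-11R array 2) and for CFLAR with the mean of its probe sets (-0.027), where the probe sets cancel. The cause of the other changes was not tested. The fit with probe sets of several genes and the CFLAR gap were added after the data were seen.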
